A study of Mus musculus with 6 samples.

Results

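The 7 ligand genes of the epidermal growth factor (EGF) family, Areg, Ereg, Hbegf, Tgfa, Btc, Epgn and Egf, and 3 genes of their ErbB receptors, Egfr, Erbb2 and Erbb3, were followed in mouse taste cells at 2 and 6 months of age. These 10 genes were chosen by name out of the 23361 genes of the deposited table, and each has 1 row there. Taste cells of the circumvallate and foliate papillae, which carry most taste buds of the posterior tongue, were freed from the lingual epithelium of untreated C57BL/6 mice with enzymes, giving 3 libraries at each age, with cells of several mice pooled for each library. The sample labels give 2 months for the younger group, and the series' design text names 3 months in one place. The table gives 1 FPKM value per gene and age (fragments per kilobase of transcript, scaled to the mapped reads of a library), in which the 3 libraries of an age are already merged. These merged values allow no SD, no replicate check and no test of a difference, and the sequencing depth is unknown.

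EGF family ligands are made as membrane-anchored precursors, and proteases of the ADAM family cut them free. The released ligand binds EGFR on the same or a neighbouring cell, the receptors pair up, and the signal runs on through RAS, the MAP kinase ERK and PI3 kinase. ErbB2 has no known ligand of its own and serves as a partner of the other receptors, whereas ErbB3 binds neuregulins and has little kinase activity, so that it also works in pairs. In stratified epithelium such as that of the tongue, the pathway is known for driving keratinocyte growth and wound repair, and amphiregulin, HB-EGF and TGF-alpha act there as autocrine factors.

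What makes these ligands one family is the EGF motif, in which 6 cysteines form the folded core that touches the receptor. The stretch of coding sequence from the first to the last of these cysteines is shown for 6 ligands, all but Hbegf, because it is the feature they share. The genes were chosen by name as members of this family, so that a motif in each ligand was to be found and is no result. The sequences were read from GENCODE M21 transcripts on GRCm38, 5′ to 3′ on the coding strand, and capitals mark the 6 cysteine codons.
Areg: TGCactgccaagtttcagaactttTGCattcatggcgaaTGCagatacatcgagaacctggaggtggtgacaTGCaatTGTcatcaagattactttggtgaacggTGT
Ereg: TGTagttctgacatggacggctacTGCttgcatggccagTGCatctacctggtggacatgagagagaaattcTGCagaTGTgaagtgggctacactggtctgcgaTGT
Epgn: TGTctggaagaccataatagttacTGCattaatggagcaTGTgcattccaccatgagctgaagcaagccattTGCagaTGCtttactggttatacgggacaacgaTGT
Btc: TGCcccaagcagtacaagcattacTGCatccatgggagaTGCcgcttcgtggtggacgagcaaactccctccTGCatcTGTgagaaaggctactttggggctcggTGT
Tgfa: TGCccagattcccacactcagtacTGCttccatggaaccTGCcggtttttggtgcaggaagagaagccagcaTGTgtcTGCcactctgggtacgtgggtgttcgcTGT
Egf: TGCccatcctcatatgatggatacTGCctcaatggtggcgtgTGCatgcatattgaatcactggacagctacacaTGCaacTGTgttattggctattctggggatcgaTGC

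The motif was searched as 6 cysteines with 7, 4 or 5, 10 to 13, 1 and 8 residues between them, and each of these 6 coding regions held this pattern once. Other EGF-like repeats of the Egf precursor, whose spacing differs, were not searched. Between successive cysteines lay 7, 4, 10, 1 and 8 codons in Areg, Ereg, Epgn, Btc and Tgfa, which gave a motif of 36 codons. Egf had 5 codons in the second gap in place of 4, and a motif of 37 codons. In all 6 genes the motif was split between 2 neighbouring exons, and the junction fell inside the single codon between the fourth and the fifth cysteine, after 2 of its bases. The exons were 3 and 4 in Areg, Ereg, Epgn, Btc and Tgfa, and 20 and 21 in Egf. Among the 10 pairs of motifs of equal length, Tgfa and Btc were the most alike in the encoded residues, with 52.8% identity over 36 residues. Areg was the least like Ereg and Epgn, with 33.3% identity to each, and the 6 cysteines are part of every such count.

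The pieces of the motif lie at chr5:91143614-91143690 and chr5:91144334-91144364 in Areg and at chr5:91088496-91088572 and chr5:91089081-91089111 in Ereg. In Epgn they lie at chr5:91031152-91031228 and chr5:91032207-91032237, and in Btc at chr5:91366121-91366197 and chr5:91362421-91362451. In Tgfa they lie at chr6:86263200-86263276 and chr6:86269930-86269960, and in Egf at chr3:129690771-129690850 and chr3:129686322-129686352. Btc and Egf are on the minus strand and the other 4 on the plus strand.

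At both ages Hbegf, the gene of heparin-binding EGF, was by far the strongest ligand gene, and on the FPKM scale every one of the 7 ligands was lower at 6 than at 2 months. Hbegf had 54.5 FPKM at 2 months against 39.3 FPKM at 6 months. Areg, which encodes amphiregulin, had 17.3 FPKM at 2 months against 13.5 FPKM at 6 months. Tgfa, the gene of TGF-alpha, had 13.7 and 11.1 FPKM. These 3 genes kept the first 3 places among the ligands at both ages, and Hbegf was 3.16 times as high as Areg at 2 months and 2.91 times at 6 months.

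Epiregulin and betacellulin, the products of Ereg and Btc, bind ErbB4 as well as EGFR, as HB-EGF does. Ereg had 8.81 FPKM at 2 months against 5.44 FPKM at 6 months. Btc had 7.70 and 6.84 FPKM. Ereg was thus 1.15 times the level of Btc at 2 months and 0.795 times at 6 months, and with no replicate values their order at either age cannot be told from a tie. Epgn, the gene of epigen, had 1.05 and 0.668 FPKM, and Egf, the founding member of the family, had 0.867 and 0.833 FPKM. Egf mRNA was thus near the bottom of the range, 62.8 times below Hbegf at 2 months and 47.2 times below it at 6 months.

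The receptors were abundant and differed less between the ages than most of the ligands. Erbb2 had 48.3 FPKM at 2 months against 53.8 FPKM at 6 months, and Erbb3 had 45.9 and 48.6 FPKM. Egfr, the receptor that binds all 7 ligands, had 13.6 FPKM at 2 months against 15.2 FPKM at 6 months. The order was Erbb2, Erbb3 and Egfr at both ages, with Erbb2 at 1.05 times Erbb3 at 2 months, a gap that no replicate error is at hand to judge, and 3.54 times Egfr at both ages. A gene was counted as expressed when its mean over both ages was 1 FPKM or more, as for 12652 genes. Erbb2 and Erbb3 ranked above 86.1% and 84.9% of the expressed genes, and Egfr above 55.9%. Hbegf ranked above 84.8% of them.

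**Figure D1:**
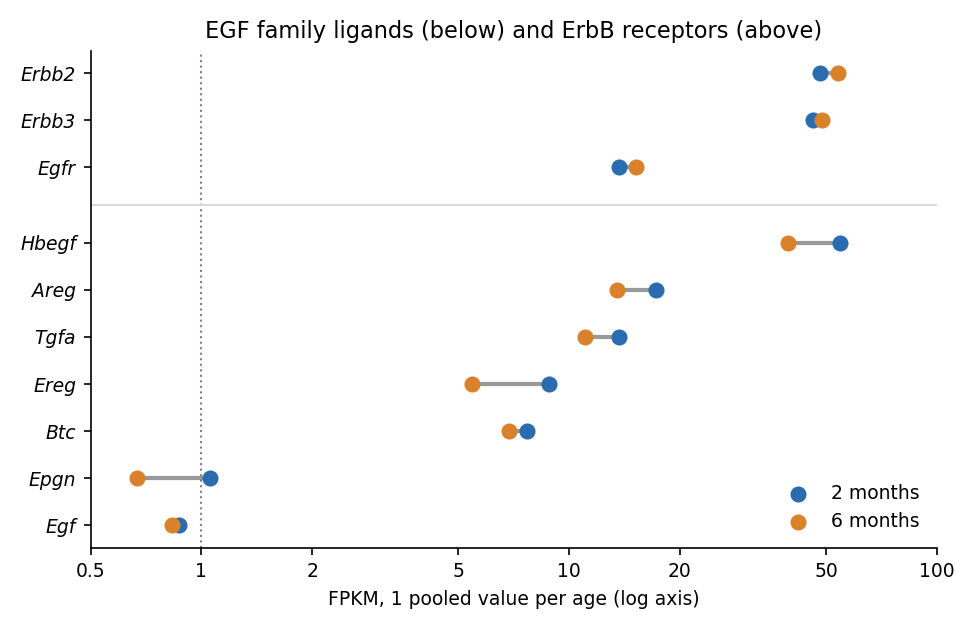
FPKM of each ligand gene (lower rows) and receptor gene (upper rows) on a log axis, with 1 pooled value per age in blue for 2 months and orange for 6 months, and a dotted line at 1 FPKM. All 7 ligand genes have the orange point to the left of the blue one, and all 3 receptor genes have it to the right.

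Summed over the 7 ligands, the level was 103.8 FPKM at 2 months against 77.7 FPKM at 6 months, which is 25.2% lower. Hbegf alone made up 57.9% of that difference of 26.1 FPKM. Without Hbegf, the sum was 49.4 FPKM at 2 months against 38.4 FPKM at 6 months, which is 22.3% lower. The make-up of the sum was much the same at both ages, with 52.4% of it from Hbegf at 2 months and 50.6% at 6 months, 16.6% and 17.4% from Areg, and 13.2% and 14.3% from Tgfa. Ereg made up 8.49% at 2 months and 7.0% at 6 months. The 3 ligands that also bind ErbB4 summed to 71.0 FPKM at 2 months against 51.6 FPKM at 6 months, and the 4 ligands of EGFR alone to 32.9 and 26.1 FPKM, so that both classes were lower, by 27.3% and 20.6%.

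The 3 receptors together had 107.8 FPKM at 2 months against 117.6 FPKM at 6 months, which is 9.01% higher. The ratio of summed ligand to summed receptor FPKM was 0.963 at 2 months and 0.661 at 6 months. Erbb2 and Erbb3 made up 44.8% and 42.6% of the receptor sum at 2 months. The ratio is therefore no measure of ligand per receptor that binds it. Against Egfr alone, Hbegf was 3.99 times as high at 2 months and 2.59 times at 6 months. In these bulk libraries, fewer cells that make a transcript and less of it per cell cannot be told apart.

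**Figure D2:**
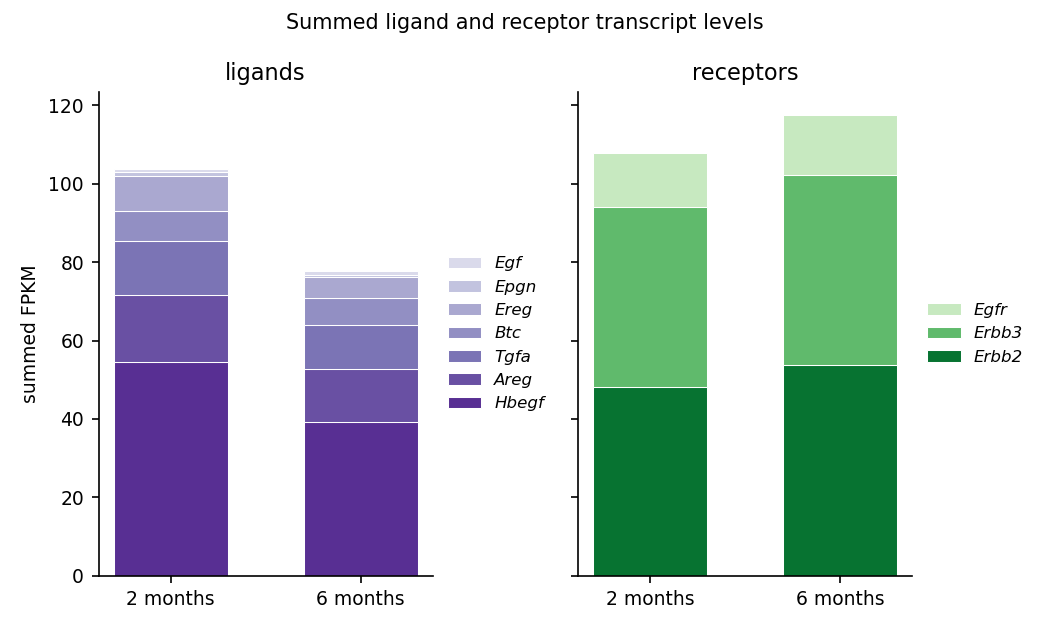
Stacked bars of FPKM summed over the ligand genes (left, purple) and receptor genes (right, green) at each age, with 1 shade per gene. The ligand bars reach 103.8 and 77.7 FPKM, with Hbegf as the largest part of each, and the receptor bars 107.8 and 117.6 FPKM.

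Changes were then expressed as the difference of log2(FPKM + 1), 6 minus 2 months, a scale that understates the change of weakly expressed genes. Ereg had the largest change of the members, a log2 difference of -0.61, and its 6 month value was 38.3% lower on the FPKM scale. Of the expressed genes, 1.62% had a lower log2 difference than Ereg. Hbegf followed with -0.46, a value 27.8% lower in FPKM, and 2.37% of these genes had a lower log2 difference. Areg had a log2 difference of -0.33 and Tgfa of -0.28, or 21.7% and 19.1% lower in FPKM, with 3.98% and 5.58% of genes below them.

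Btc was nearer the bulk of genes, with a log2 difference of -0.15 and 17.1% of genes below it. The remaining ligands, Epgn and Egf, had a mean under 1 FPKM, so that 8 of the 10 members passed this filter, 5 of them ligands. Epgn had a log2 difference of -0.30, which stood for a value 36.7% lower in FPKM, and Egf of -0.03. The means of Epgn and Egf were 0.861 and 0.85 FPKM, just outside the filter, and the lowest member inside it was Ereg with a mean of 7.13 FPKM.

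The receptors lay on the other side of 0. Erbb2 and Egfr both had a log2 difference of 0.15, and Erbb3 of 0.08. Higher log2 differences than these were held by 12.1%, 12.9% and 24.8% of expressed genes, so that the receptors were not at the edge of the distribution. Over all expressed genes, the median log2 difference was -0.01, with quartiles of -0.10 and 0.08.

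By direction alone, 7 of the 7 ligands were lower at 6 months, or 5 of the 5 that were expressed by this measure, where 53.7% of all expressed genes were lower. All 3 receptors were higher, where 46.3% of expressed genes were. The median log2 difference was -0.30 over the 7 ligands and 0.15 over the 3 receptors. Differences of 1.5-fold or more were then counted, on the same scale. It was reached by 1 member, Ereg, which was lower, and 1.72% of expressed genes were lower by as much. Of the members, 0 were higher by 1.5-fold, as were 1.05% of genes. Hbegf was the closest member that did not reach the 1.5-fold line, and Ereg, at -0.61, was only just past it, since 1.5-fold is 0.58 in size on this scale.

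The spread of the log2 differences varied with level, and each expressed member was therefore also read against genes of its own range. Among 4940 genes with a mean from 5 to 20 FPKM, 1.28% were at least 1.5-fold lower, and 1.21% lay below Ereg. In the same range, 3.10% lay below Areg, 4.66% below Tgfa and 14.0% below Btc. Among 4371 genes with a mean of 20 FPKM or more, 2.36% were at least 1.5-fold lower and 3.11% lay below Hbegf. For the receptors, 91.6% of these genes lay below Erbb2 and 83.0% below Erbb3, and 86.7% of the 5 to 20 FPKM range lay below Egfr. In the range from 1 to 5 FPKM, which held 0 members, 1.53% of 3341 genes were at least 1.5-fold lower.

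**Figure D3:**
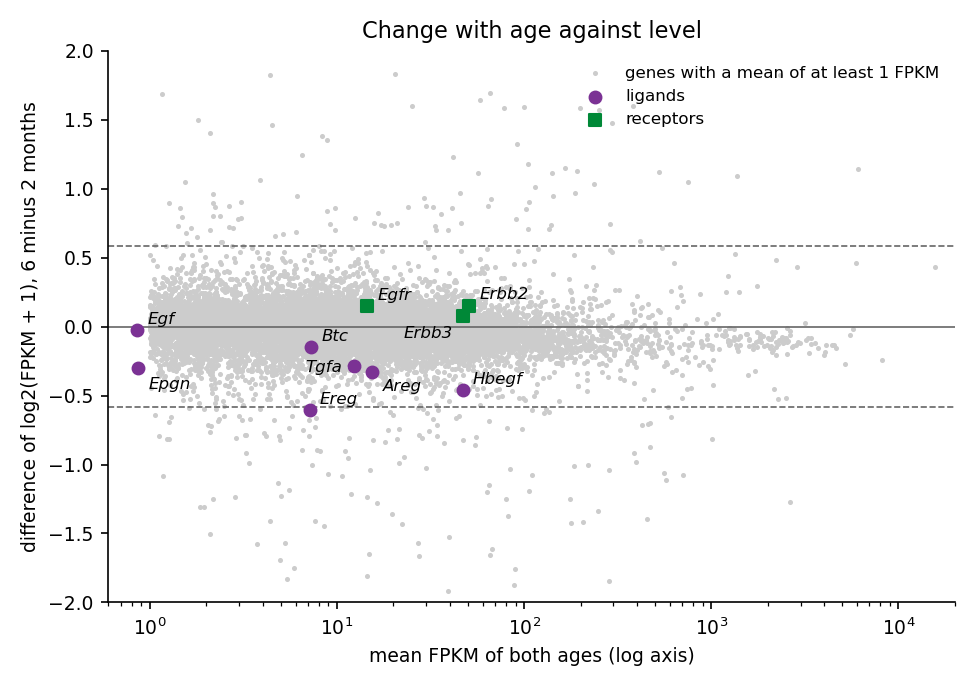
Difference of log2(FPKM + 1), 6 minus 2 months, against the mean FPKM of both ages on a log axis, with ligands as purple circles, receptors as green squares and expressed genes (mean of 1 FPKM or more) as grey points (112 of them lie beyond 2 on either side and are not drawn). Dashed lines mark 1.5-fold, and Ereg is the only member on or past one of them, at -0.61.

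The transcripts of Areg, Epgn, Hbegf, Btc, Egfr and Erbb3 share no exonic base with another gene in the GENCODE M21 basic annotation of GRCm38. Exonic bases shared with other annotated genes numbered 141 of 4128 in Ereg, 118 of 4527 in Tgfa, 9 of 5012 in Erbb2 and 1107 of 4795 in Egf. The deposited values were obtained with a RefSeq annotation, in which overlaps were not searched here. The sources used here do not say that strand was kept in counting. Reads of these shared bases may thus come from either gene, and Egf has the largest shared part. The effect on its low value is unknown.

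The ligand genes Epgn, Ereg, Areg and Btc lie in one stretch of 375531 bases on chromosome 5 of GRCm38, from 91027464 to 91402994. Epgn (91027464 to 91035215), Ereg (91074622 to 91093646) and Areg (91139599 to 91148432) are read from the plus strand, and Btc (91357261 to 91402994) from the minus strand. GENCODE lists 7 genes in the stretch, and the 3 others are noncoding. Within this cluster the log2 differences ran from -0.61 for Ereg over -0.33 for Areg and -0.30 for Epgn to -0.15 for Btc. Tgfa lies on chromosome 6 from 86195223 to 86275719 and has 6 exons. Egf lies on chromosome 3 from 129677565 to 129755316 and has 24 exons. Hbegf lies on chromosome 18 from 36504927 to 36515805 and has 6 exons.

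The receptor genes are long, with 28 exons in Egfr (chromosome 11, 16752203 to 16918158), 27 in Erbb2 (chromosome 11, 98412470 to 98437716) and 28 in Erbb3 (chromosome 10, 128567523 to 128589652). They encode 1210, 1256 and 1339 residues. The ligand precursors are shorter, from 152 residues in Epgn to 248 in Areg, apart from Egf with 1217.

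Because all ligand genes were lower at 6 months, and the study is concerned with AP1, a pair of Fos and Jun proteins that binds DNA, promoters were searched on both strands for the AP1 motif TGANTCA and the cAMP response element TGACGTCA, neither of which lies within the other. RefSeq promoters of GRCm38.p6, 250 bases before to 50 after a start site, were searched for 7 members in 8 entries, of which 2 were of Egf. Ereg, Hbegf and Erbb3 were not searched here, and these include the ligands with the largest log2 differences. The AP1 motif was in 0 of these 8 entries and in 7.81% of all 32851 promoters. The cAMP response element was in 1, that of Areg, and in 1.79% of all promoters. The 250 bases before the Areg start site, chr5:91139349-91139598 on the plus strand, are shown because they hold this one match, which is in capitals and begins 61 bases before the start site.
Areg promoter: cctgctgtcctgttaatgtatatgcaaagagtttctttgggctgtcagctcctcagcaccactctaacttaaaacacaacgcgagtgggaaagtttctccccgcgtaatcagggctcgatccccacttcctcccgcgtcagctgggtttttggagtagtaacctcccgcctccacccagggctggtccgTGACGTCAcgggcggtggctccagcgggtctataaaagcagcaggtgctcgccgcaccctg

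A match is a run of letters and no evidence that a factor binds there. No match in these windows says nothing of sites farther away.

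The remaining ErbB receptor and the neuregulins were at the low end. Erbb4 had 0.0665 FPKM at 2 months against 0.10 FPKM at 6 months. Of the neuregulin genes, Nrg4, whose product is a ligand of ErbB4, was the only one expressed, at 1.90 and 2.14 FPKM, a log2 difference of 0.11. Nrg1 and Nrg2 encode ligands of ErbB3 as well as ErbB4. Nrg1 had 0.649 and 0.682 FPKM, Nrg2 had 0.379 and 0.504 FPKM, and Nrg3 had 0.0204 and 0.0390 FPKM.

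Genes that act around the receptors were taken from lists by role, and 0 of the 62 expressed genes on them reached 1.5-fold in either direction. Over all expressed genes, 1.72% were lower and 1.05% higher by as much, so a count of 0 among 62 sets these lists little apart. The genes of ligand release, which are ADAM proteases, rhomboid family proteins, a tetraspanin and a protease inhibitor, had 10 of 11 expressed, with log2 differences from -0.03 to 0.24 and a median of 0.02. Adam17, the main sheddase of amphiregulin, HB-EGF and TGF-alpha, had 19.5 FPKM at 2 months against 19.3 FPKM at 6 months. Adam10, which can shed betacellulin and EGF, had 34.0 and 33.4 FPKM, and Adam15 was the highest of the list with 69.1 and 70.4 FPKM. Timp3, an inhibitor of ADAM17, had the largest log2 difference of the list, 0.24.

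Of the 15 genes that restrain ErbB receptors, 10 were higher and 5 lower by any amount, beside 46.3% of all expressed genes that were higher, with a median log2 difference of 0.08. Cbl, a ubiquitin ligase that sends active EGFR to degradation, had 6.76 FPKM at 2 months against 8.82 FPKM at 6 months, a log2 difference of 0.34. Socs4, which also promotes loss of EGFR, had 5.98 and 7.81 FPKM, with the same log2 difference. Higher log2 differences than Cbl were held by 2.65% of genes. Errfi1, a feedback inhibitor that binds the EGFR kinase, was at 23.3 and 22.9 FPKM, and Lrig1, a membrane inhibitor of ErbB receptors, at 12.7 and 13.8 FPKM. Tsg101, a sorting protein for internalised receptors, was the highest of the list with 65.4 and 61.3 FPKM.

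In the relay from receptor to nucleus, 27 of 28 listed genes had values, all of them expressed, and 21 were higher and 6 lower by any amount, beside the same 46.3% higher over all expressed genes. Their log2 differences stayed between -0.07 and 0.20, with a median of 0.04. The highest was Mapk3, the gene of ERK1, with 98.6 FPKM at 2 months against 96.3 FPKM at 6 months.

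The 10 genes commonly read as transcriptional output of ERK signalling included 9 that were expressed, and 7 of these were lower by any amount, where 53.7% of all expressed genes were. Their median log2 difference was -0.13, beside -0.01 over all genes. Dusp6, a phosphatase that switches ERK off, had 27.6 FPKM at 2 months against 20.3 FPKM at 6 months, a log2 difference of -0.42, and 2.74% of genes were below it. Etv5, an ETS factor, had 14.5 and 10.7 FPKM with a log2 difference of -0.41, and its relative Etv4 had 9.87 and 8.24 FPKM with -0.23. Phlda1, the highest of the list in mean FPKM, had 101.1 and 84.3 FPKM, a log2 difference of -0.26. Spry2, an inhibitor of receptor tyrosine kinase signalling, had 15.6 and 14.1 FPKM with -0.13. Ccnd1, the cyclin that takes cells into the cycle, went the other way with 76.1 FPKM at 2 months against 92.3 FPKM at 6 months, a log2 difference of 0.28, which 4.01% of genes exceeded. Epha4 was the other gene that was higher, with a log2 difference of 0.04.

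**Figure D4:**
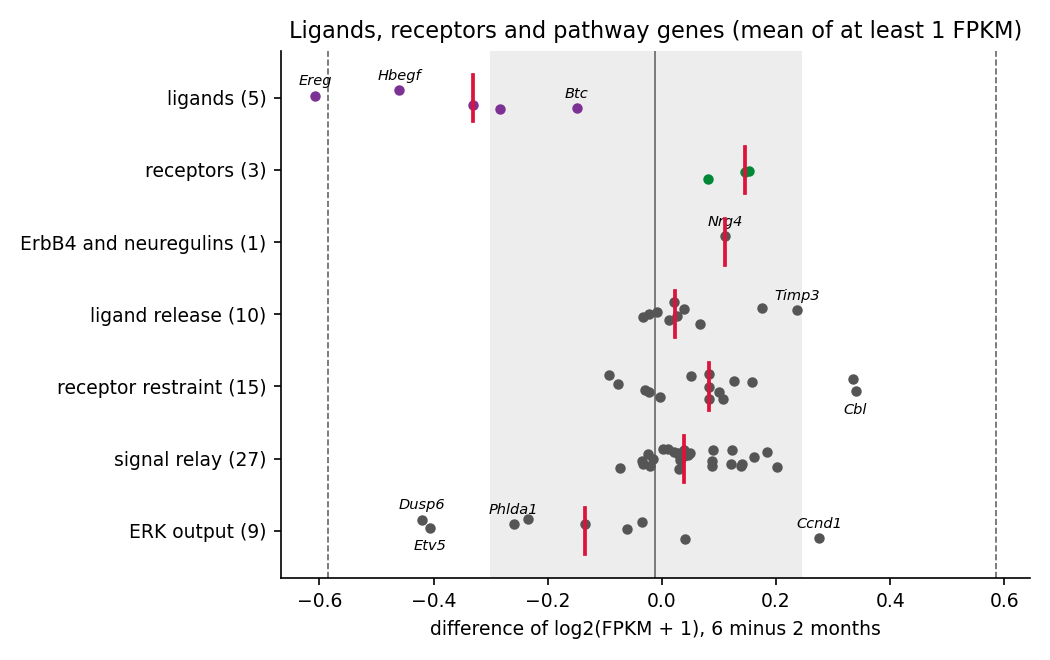
Difference of log2(FPKM + 1), 6 minus 2 months, for each gene with a mean of 1 FPKM or more (points, number of genes in brackets), with the median of each row in red. The grey band spans the 5th to the 95th percentile of all such genes, the thin line their median and the dashed lines 1.5-fold. Ligands lie at or below the left edge of the band apart from Btc and Tgfa, and in the bottom row Dusp6 and Etv5 lie left of it and Ccnd1 right of it.

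Markers of the cells that the tissue holds were read beside the ligands, since freed lingual epithelium can hold more than taste cells. All 8 taste cell markers were expressed, with log2 differences of at most 0.25 in size. At 6 months 5 of them were lower and 3 higher, where 53.7% of all expressed genes were lower. Their sum was 491.2 FPKM at 2 months against 440.4 FPKM at 6 months. Krt8 was the highest of them with 234.3 and 196.7 FPKM, and made up most of the difference of the sums. Basal keratinocyte markers had a far higher sum, 4646 FPKM at 2 months against 4619 FPKM at 6 months, led by Krt5 with 2180 and 1962 FPKM. Of these 6 markers, 3 were lower and 3 higher at 6 months, and Krt14 had 1287 and 1533 FPKM. Most of the sum came from keratins, and Trp63, with 105.8 and 94.1 FPKM, was within the range of the taste cell markers. Transcripts of these basal markers were thus abundant, but such sums do not measure the share of each cell type. The paper counts differentiating taste cells among those that express Krt14, so this marker is not particular to keratinocytes outside taste buds. Which cells the values of the members come from was not tested.

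Of the markers of suprabasal keratinocytes, the upper layers of the epithelium, most that could be compared moved in the direction of the ligands. Flg, which was also listed, had no value. Over the 5 that were expressed and above 0 in both ages, 4 were lower at 6 months, 2 of them by 1.5-fold or more. Of all expressed genes, 53.7% were lower, and 1.72% were lower by 1.5-fold or more. The sum of these 5 markers was 2337 FPKM at 2 months against 1582 FPKM at 6 months. Krt10 and Lor were the 2 past 1.5-fold, with log2 differences of -1.08 and -0.82. Lor had 1292 and 733 FPKM and made up most of the difference of the sums. Krt1 and Sbsn were lower with -0.57 and -0.22, and Dsg1a was higher with 0.13. Krt4 was listed at 7334 FPKM at 2 months and at 0 at 6 months, Krt6a at 0 and 3391 FPKM, and Krt13 at 0 in both ages, and these values were left out since a 0 for so abundant a keratin can be a failed estimate. Gland markers were lower as well, all 5 of 5 that were expressed, and 2 were lower by 1.5-fold or more, beside the same shares of all genes. Their sum was 148.7 FPKM at 2 months against 53.9 FPKM at 6 months. Lipf had 83.7 and 14.7 FPKM, which made up most of the difference of these sums, and Bpifb1 had 28.6 and 10.6 FPKM. Muc5b differed little, with 20.1 and 18.2 FPKM and a log2 difference of -0.14. Aqp5 and Amy1 had log2 differences of -0.58 and -0.45. Prol1 was listed at 0 in both ages.

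Among the other lists, 2 of the 6 fibroblast markers were expressed, and both were lower at 6 months. Of all expressed genes, 53.7% were lower, and 1.72% were lower by 1.5-fold or more. Dcn had 42.0 and 27.3 FPKM, a log2 difference of -0.60, which is past the 1.5-fold line. Pdgfra hardly differed, with 1.10 and 1.05 FPKM and a log2 difference of -0.03. Col1a1 was under the filter, at 0.134 and 0.0599 FPKM. Schwann cell markers, which matter here because that cell type is known to express Erbb3, had 3 of 5 expressed, with a sum of 22.3 FPKM at 2 months against 21.7 FPKM at 6 months that was mostly Mbp. Sox10 was lower, with 1.95 and 1.05 FPKM, and Ngfr higher, with 4.14 and 4.70 FPKM. Leukocyte markers summed to 309.0 and 267.6 FPKM, mostly Lyz2, but 3 of the 5 that were expressed were higher at 6 months and the median log2 difference was 0.06. The only endothelial marker expressed was Tek with 1.57 and 1.55 FPKM. The 4 muscle markers that were expressed were all higher at 6 months, as were 46.3% of expressed genes, with a sum of 8.83 and 15.8 FPKM. Of these markers, 3 were higher by 1.5-fold or more, as were 1.05% of expressed genes. Mylpf was the highest in mean FPKM, with 3.76 and 5.25 FPKM. The 3 past the line were Acta1, Tnnt3 and Ckm, with log2 differences of 0.79, 0.78 and 0.65. The part of these cell types in the ligand values was not tested.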

How the data were processed

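RNA of isolated taste cells was sequenced in 6 libraries, 3 at 2 months and 3 at 6 months. The authors mapped the reads with TopHat2 2.0.7 to GRCm38/mm10, using the iGenomes RefSeq annotation, and obtained the deposited FPKM values with Cufflinks 2.1.1 and Cuffdiff, as 1 value per gene and age (versions from the submitters' processing notes). The normalization between libraries is not given in the sources used here. The column headed B was taken as 6 months and the column headed S as 2 months, by the letters in the sample titles. The table also holds a p-value of the authors' own comparison for each gene, which was not used.

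Differences are those of log2(FPKM + 1), 6 minus 2 months. The design fixed for a table with only pooled values was followed, with no test. Backgrounds were taken over genes whose mean was 1 FPKM or more, and a fold of 1.5 was the line for a call. The fold count was run on simulated data, in which 200 of 200 genes changed by 3-fold were recovered. Changes of that size lie far past the line, so this checked the code and not calls near 1.5-fold, such as that of Ereg. The members and the lists of pathway and marker genes were chosen with earlier results of these data known. The gene with the highest mean FPKM of each list was to be named, with pathway genes past the line and markers at 0 in both ages. The other list genes named were picked after their values were seen. Python 3.11.15, numpy 2.4.6, pandas 2.3.3 and matplotlib 3.10.9 were used.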

Additional observations from a re-analysis of the deposited data

How the results depend on the processing

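The table has 1 value per gene and age, and leaving out each library in turn was not run for that reason. No paired analysis was possible because there are no values per library. Changes smaller than the unknown spread between pools cannot be told from 0.

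The log2 difference of each of the 10 members was recomputed with a pseudocount of 0.1, with the same upper quartile at both ages and with a median difference of 0 over expressed genes. All 30 values kept their direction. In 29 the side of the 1.5-fold line stayed as well, and with a pseudocount of 0.1 Epgn moved past it, from -0.30 to -0.59. The value of Ereg closest to the line was -0.59, at the same upper quartile. The number of members past the line was 1 with no filter, with a mean of 5 FPKM or more, with the pseudocount of 0.1 under the filter and at the same upper quartile, and 0 at a fold of 2. The number of pathway genes past the line was 0 under each alternative tried for it, which were a fold of 2, no filter, the pseudocount of 0.1 and the same upper quartile. Without small RNA genes and genes listed at 0 in 1 age, an alternative chosen after seeing the data, the share of genes at least 1.5-fold lower was 1.17% in place of 1.72%.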
